A study of Homo sapiens with 47 samples.

Results

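The integrated stress response was described through 10 of the 25739 genes of the expression table, taken as a named list of genes: ATF4, ATF5, DDIT3, DDIT4, ASNS, TRIB3, CHAC1, SESN2, PSAT1 and PHGDH. They were followed in 37 circulating tumor cells (CTC) from 5 mice and in 6 LM2 cells taken from culture. LM2 is a metastatic subline of the human triple-negative breast cancer line MDA-MB-231, labeled here with GFP. Young immunodeficient NSG mice, which lack lymphocytes but keep red cells and myeloid cells, received LM2-GFP cells in the fourth mammary fat pad, and CTCs were collected from terminal blood by size, stained for CD45 to set blood cells aside, picked singly by GFP and sequenced with SMARTseq2. There were 2 CTCs from mouse 5541, 4 from 5542, 10 from 5545, 17 from 5546 and 4 from 5549, and 4 further labelled CTCs were not analysed here. All cells were taken as human LM2 cells of 1 line, and no mouse received a treatment. The cultured cells LM-1, LM-2, LM-3, LM-10, LM-P3 and LM-P4 came from a culture with no stated replicate, so they were taken as 1 sample. The comparison asks how the ATF4 program of tumor cells in blood stands against that of the same line in a dish.

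The integrated stress response starts with kinases that phosphorylate the initiation factor eIF2 when a cell lacks amino acids or heme, meets viral RNA or accumulates unfolded protein. General translation then slows, while the mRNA of ATF4 is translated better because of short upstream reading frames, so ATF4 protein can increase without more ATF4 mRNA. ATF4 is a basic leucine zipper factor that switches on amino acid transporters, enzymes of asparagine and serine synthesis and tRNA synthetases, and under lasting stress also CHOP, the product of DDIT3, and the feedback genes TRIB3 and CHAC1. In breast cancer the serine enzymes PHGDH and PSAT1 are well known for their role in growth when serine is scarce.

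Depth ranged from 469614 to 2041333 reads on genes per CTC and from 776949 to 1186197 per cultured cell, and the number of genes detected from 2227 to 11010 and from 7226 to 12271. The labels put all cells in a single batch. Defining LM2 markers were present: VIM, CD44, CAV1, KRT18 and ANXA2 were found in the CTCs and in the cultured cells with a summed level of 5492 to 40062 and 13334 to 18705, while ESR1 and PGR, the receptors that triple-negative cells lack, were at 0 in culture and had a read in 1 and 3 CTCs. ERBB2, the third such receptor, had a read in 3 of 6 cultured cells and 17 of 37 CTCs, with a culture mean of 8.73 and a mean of the mouse means of 7.50. Of 5 erythroid markers, 3 were in the table, and HBB, HBA2 and ALAS2 summed to 0 to 12509 in CTCs (median 986) and were all at 0 in cultured cells. The leukocyte markers reached 0 to 419 in CTCs and 0 to 15.5 in cultured cells. Reads were aligned to the human genome, and the origin of these blood cell transcripts was not tested. Values are normalized read counts, that is, reads corrected by a size factor for each cell, and on this scale most genes were lower in CTCs. Over the 9164 genes whose larger mean was at least 8, the median log2 ratio of CTCs to culture was -1.20, with 85.3% of genes below 0, against -0.45 when the reads of each cell were instead scaled to an equal total. Ratios of the members are therefore read against that shift.

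Set per kilobase of the main transcript, the order of levels differed between blood and dish. In culture the serine enzyme PSAT1 led with a mean of 355 per kilobase, followed by DDIT4 with 284, ATF4 with 209, PHGDH with 106 and DDIT3 with 85.5. In CTCs, taking the mean of the mouse means, DDIT4 led with 265 per kilobase, followed by ATF4 with 190, DDIT3 with 166, TRIB3 with 90.8 and SESN2 with 30.7, and PSAT1 stood seventh with 23.1. This order rested on CTC 5549-6: without it ATF4 led with 186, followed by DDIT4 with 141, DDIT3 with 99.5, PHGDH with 26.1 and PSAT1 with 24.5, all ahead of TRIB3 and of SESN2 with 5.39. CHAC1 had 28.3 per kilobase in culture and 3.18 in CTCs. ATF5 and ASNS were the lowest in both, ATF5 with 0.876 and 0.391 and ASNS with 1.50 and 1.60 per kilobase. CTCs carried a read of 2 to 10 members each with a median of 6, and cultured cells of 7 to 10 with a median of 8.

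**Figure D1:**
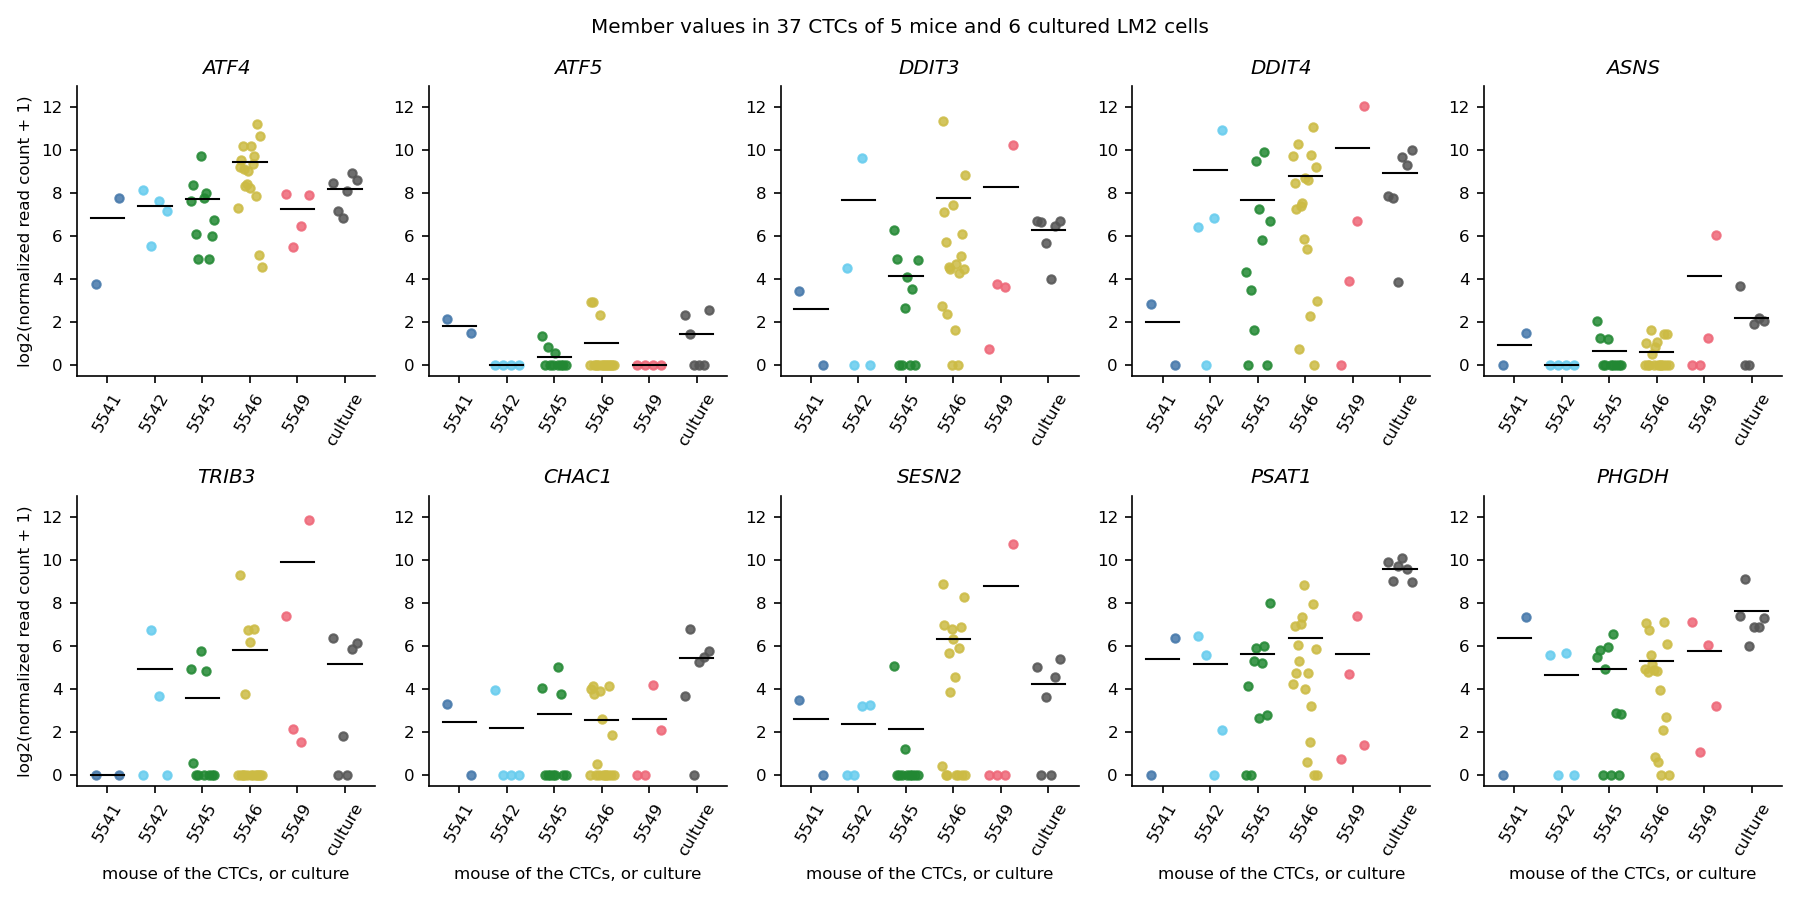
Normalized read counts of the 10 members on a log2(value + 1) axis in each CTC, grouped by mouse, and in each cultured LM2 cell. Points are single cells and black bars are the log2 of the group mean + 1; PSAT1 is the member whose 37 CTCs all lie below the 6 cultured cells, with a highest CTC of 463 and a lowest cultured cell of 505.

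ATF4 (ENSG00000128272, chr22:39519695-39522683, plus strand), the transcription factor at the centre of the response, was the one member with a read in all 37 CTCs and all 6 cultured cells. Cultured cells held 114 in LM-2, 145 in LM-10, 278 in LM-3, 358 in LM-1, 395 in LM-P4 and 488 in LM-P3, a mean of 296 ± 146 (SD, n = 6 cells). The CTCs spread much wider, from 12.9 in 5541-1 to 2412 in 5546-s6 with a median of 238. Of the 37 CTCs, 15 lay within the range of the cultured cells, 11 above it and 11 below. The means of the mice were 116 in 5541, 155 in 5549, 169.6 in 5542, 216 in 5545 and 693 in 5546, and the ranges of the cells overlapped between all mice. Of the 11 CTCs above every cultured cell, 10 came from mouse 5546 and 1, 5545-15 with 850.1, from another mouse. The 17 CTCs of mouse 5546 had a median of 565, and the 20 CTCs of the other mice 171. At equal total reads 16 CTCs lay above every cultured cell and 9 below. Their split by mouse was not counted on that scale.

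Library names of mouse 5546 carry a c in 9 cases and an s in 8, letters that the sources used here do not explain, and the s libraries had fewer genes detected (4225 to 6942 against 7438 to 11010). ATF4 reached 156 to 1180 with a median of 525 in the c libraries and 22.6 to 2412 with a median of 759 in the s libraries. Each letter held 5 of the 10 high cells, and a part of the letters in the level of ATF4 was not tested. The log2 ratio of ATF4, mean of the mouse means over culture, was -0.13 (SD over mice 1.00), above the median gene, and 0.61 at equal total reads. Its sign thus turned with the scale. The log2 ratio was -0.32 without the s libraries and -0.85 without mouse 5546.

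ATF5 (ENSG00000169136, chr19:49928702-49933935, plus strand), a related factor under the same translational control, was scarce. It had a read in 8 of 37 CTCs (21.6%, exact 95% interval 9.83 to 38.2%) and in 3 of 6 cultured cells, and no cell reached a value of 8. The highest CTCs were 5546-c10 with 6.80 and 5546-c2 with 6.79, and the highest cultured cell LM-P4 with 4.84. With 48 reads in all CTCs and 6 in all cultured cells, no difference was detectable at this depth. The gene overlaps NUP62 and IL4I1 on the opposite strand, and the counting ignored strand.

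DDIT3 (ENSG00000175197, chr12:57516588-57521737, minus strand) encodes CHOP, the bZIP factor linked to cell death under lasting stress. The cultured cells were alike apart from LM-3: 15.0 in LM-3, 51.4 in LM-2, 87.8 in LM-P3, 99.996 in LM-10, 103 in LM-P4 and 105 in LM-1. CTCs were split more sharply, with 9 cells at 0, a median of 16.1 and 6 cells above every cultured cell. Those 6 were 5546-c10 with 2625, 5549-6 with 1217, 5542-4 with 789.7, 5546-s9 with 461, 5546-c9 with 174 and 5546-c2 with 138. In contrast, 18 CTCs lay below the lowest cultured cell.

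The mouse means of DDIT3 were 5.06 in 5541, 16.9 in 5545, 203 in 5542, 216 in 5546 and 311 in 5549, so 3 mice stood above the culture mean of 77.2 and 2 below it. In each of the 3 high mice the mean was set by 1 or a few cells, as the medians of 11.2 in 5542, 22.5 in 5546 and 12.3 in 5549 show. The cell 5546-c10 alone held 44.4% of the DDIT3 signal of all CTCs. The log2 ratio was 0.95 (SD over mice 2.55), 0.22 without CTC 5549-6 and -2.89 with medians over cells. Of its coding bases, 24.5% overlap MARS1 on the other strand, and reads there may not be told apart without strand.

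TRIB3 (ENSG00000101255, chr20:362835-397559, plus strand), a pseudokinase that restrains ATF4 and AKT signaling, was at 0 in most CTCs and spread widely among the others. In culture it was at 0 in LM-3 and LM-10, 2.51 in LM-2, 57.0 in LM-P3, 69.4 in LM-P4 and 81.6 in LM-1. In CTCs it had a read in 15 of 37 (40.5%, interval 24.8 to 57.9%), and 6 of them lay above every cultured cell: 5549-6 with 3720, 5546-c10 with 644, 5549-2 with 166, 5546-s4 and 5546-c8 with 109 and 5542-2 with 107. The means ran from 0 in mouse 5541 through 11.1 in 5545, 29.5 in 5542 and 55.7 in 5546 to 973 in 5549. The log2 ratio of 2.57 (SD over mice 3.60) rested on 5549-6, which held 73.4% of the signal, and was -0.19 without that cell.

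CHAC1 (ENSG00000128965, chr15:40952962-40956512, plus strand), the glutathione-degrading gamma-glutamylcyclotransferase at the end of the ATF4 and CHOP axis, was lower in CTCs of every mouse. Cultured cells held 0 in LM-2, 11.9 in LM-1, 36.9 in LM-3, 43.9 in LM-P3, 53.3 in LM-P4 and 112 in LM-10, a mean of 43.0 ± 39.3 (SD, n = 6 cells). The mice were close to each other, with means of 3.58 in 5542, 4.50 in 5541, 4.90 in 5546, 5.13 in 5549 and 6.05 in 5545, a mean of 4.83 ± 0.902 (SD, n = 5 mice). CTCs had a read in 15 of 37 and reached at most 32.0, in 5545-3. With LM-2 at 0, all 37 CTCs lay within the range of the cultured cells. The median of the CTCs was 0 in mice 5542, 5545 and 5546, so their close means lay near the floor. The ratio of culture to CTC means, with 1 added to each, was 7.55, a log2 ratio of -2.92 (SD over mice 0.23). Without the cultured cell LM-10 the log2 ratio was -2.37.

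DDIT4 (ENSG00000168209, chr10:72273919-72276036, plus strand) encodes REDD1, which inhibits mTORC1. Cultured cells held 13.8 in LM-2, 221 in LM-10, 235 in LM-1, 648 in LM-P3, 837 in LM-3 and 1022 in LM-P4. In CTCs the gene ran from 0 in 6 cells through a median of 104 to 4358 in 5549-6, with 21 CTCs inside the range of the cultured cells. Those above it were 5549-6, 5546-s6 with 2151, 5542-8 with 1959.6 and 5546-c4 with 1258. The mouse means were far apart, from 3.09 in 5541 through 206 in 5545, 444 in 5546 and 540.4 in 5542 to 1119 in 5549. The log2 ratio of -0.10 (SD over mice 3.20) lay near 0 only because the mice fell on both sides, and was -1.01 without 5549-6.

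SESN2 (ENSG00000130766, chr1:28259518-28282491, plus strand), a leucine sensor that also holds back mTORC1, was the member with high values in the largest number of CTCs next to ATF4. Cultured cells held 0 in LM-3 and LM-10, 11.3 in LM-2, 22.6 in LM-P3, 31.8 in LM-1 and 42.0 in LM-P4. CTCs had a read in 17 of 37 (45.9%, interval 29.5 to 63.1%), and 9 lay above every cultured cell. Of these 9, 8 came from mouse 5546, led by 5546-c10 with 478, 5546-s8 with 316, 5546-c2 with 124 and 5546-s6 with 116, and the remaining 1 was 5549-6 with 1755. The mouse means were 3.46 in 5545, 4.21 in 5542, 5.06 in 5541, 80.6 in 5546 and 439 in 5549, where the other 3 cells were at 0. The log2 ratio was 2.50 (SD over mice 2.97) and 0.05 without 5549-6, so the higher level held for mouse 5546 and for a single cell of 5549.

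ASNS (ENSG00000070669, chr7:97851677-97872542, minus strand), asparagine synthetase and a classic ATF4 target, was barely detected. It had a read in 13 of 37 CTCs and 4 of 6 cultured cells, with 68 reads in all CTCs and 13 in all cultured cells. Apart from 5549-6 with 66.6, no CTC exceeded 3.17, and the highest cultured cell was LM-1 with 11.9. In the annotation all 1683 coding bases of ASNS are also part of the lncRNA ENSG00000284707 on the same strand. That gene had 40 reads over all cells against 81 for ASNS, so the level of ASNS in these files may be too low and its comparison is uncertain.

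PSAT1 (ENSG00000135069, chr9:78297125-78330093, plus strand), phosphoserine aminotransferase and the second enzyme of serine synthesis, separated the groups most clearly. Cultured cells held 505 in LM-P4, 517 in LM-10, 761 in LM-P3, 852 in LM-2, 969 in LM-1 and 1089.9 in LM-3, a mean of 782 ± 237 (SD, n = 6 cells). CTCs ran from 0 in 6 cells through a median of 25.5 to 463 in 5546-c8, with 254 in 5545-7 and 253 in 5546-s6 next. All 37 CTCs thus lay below all 6 cultured cells, which was so for 0.163% of all genes. That share includes genes at 0 in a cultured cell, which could not meet it. The means of the mice were 34.7 in 5542, 40.8 in 5541, 48.0 in 5545, 49.2 in 5549 and 81.8 in 5546, a mean of 50.9 ± 18.2 (SD, n = 5 mice). Culture was 15.1-fold higher, a log2 ratio of -3.92 (SD over mice 0.46), the 58th lowest of 9164 genes. At equal total reads the log2 ratio was -3.21, and 36 of 37 CTCs lay below every cultured cell. On that scale all CTCs did so for 0.0272% of all genes.

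PHGDH (ENSG00000092621, chr1:119648411-119744218, plus strand), the first enzyme of serine synthesis, was lower in CTCs by less. Cultured cells held 62.7 in LM-2, 116 in LM-P3, 119 in LM-3, 159.8 in LM-P4, 169 in LM-1 and 560.3 in LM-10, a mean of 198 ± 182 (SD, n = 6 cells). CTCs had a median of 27.5 and a highest value of 163 in 5541-5. Of the 37, 29 lay below every cultured cell and 8 lay within their range. The share of all genes with as many CTCs below was not counted. The mouse means ran from 24.5 in 5542 to 81.5 in 5541. The log2 ratio of -2.09 (SD over mice 0.67) compared with -1.20 for the median of the 9164 genes with the larger mean at least 8, and at equal total reads it was -1.39. Without the cultured cell LM-10 the ratio was -1.44, beside -1.26 for the median of genes under the same filter.

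**Figure D2:**
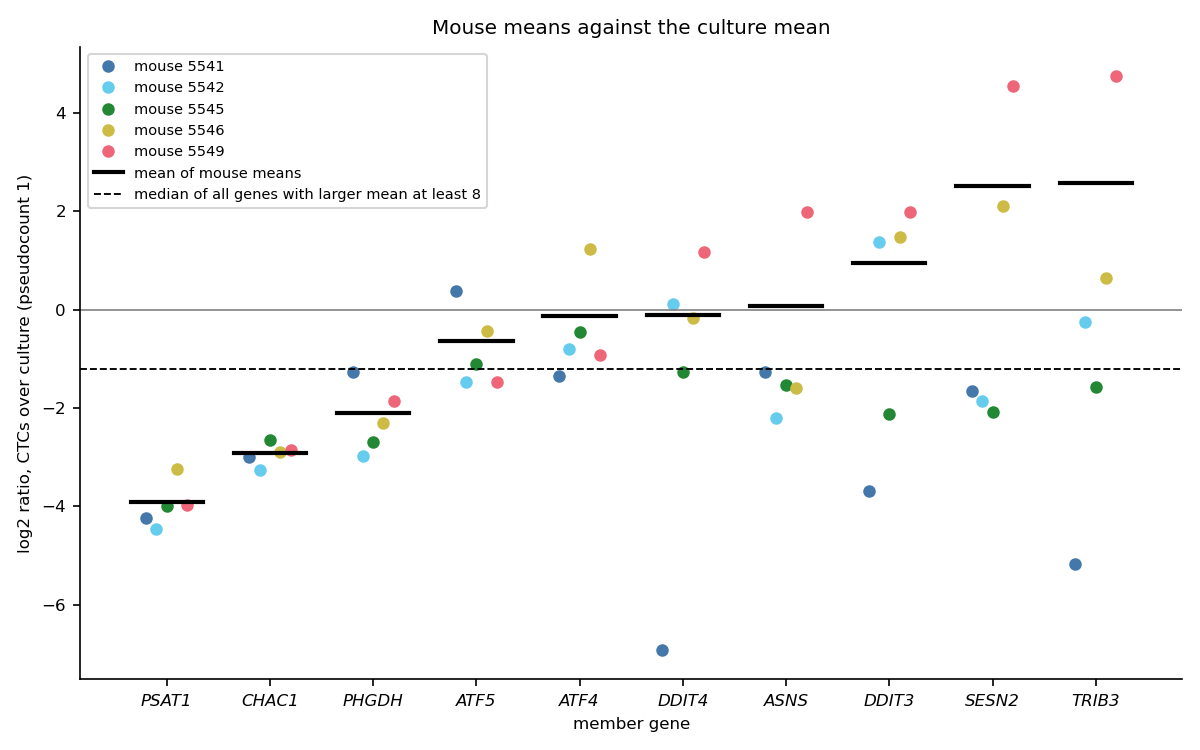
Log2 ratio of the mean of each mouse's CTCs to the mean of the 6 cultured cells, with 1 added to both, for each member in order of the mean ratio. Colored points are mice, black bars the ratio of the mean of mouse means, and the dashed line is the median of all genes with the larger mean at least 8, at -1.20; PSAT1, CHAC1 and PHGDH have all 5 mice below 0, whereas DDIT3, DDIT4, TRIB3 and SESN2 have mice on both sides.

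Over the list, a rule of size was applied in place of a test on cells: the CTC mean of each of the 5 mice had to differ at least 4-fold in 1 direction from the culture mean, with 1 added to both and the larger mean at least 8. CHAC1 and PSAT1 met it as lower in CTCs, 2 of 10 members, where 1.89% of the 25739 genes did so, and 0 members met it as higher, where 0.0233% of genes did. The minimum on the mean was reached by 9164 of all genes and by 8 members, so these shares include many genes that could not meet the rule. CHAC1, PSAT1 and PHGDH, 3 of 10, had all 5 mouse means below the culture mean, against 34.0% of all genes, so that this count is no departure from the table as a whole. For 0 members were all mouse means above it, against 0.901% of genes. The median log2 ratio of the 10 members was -0.12, beside -1.20 for all genes with the larger mean at least 8. Without CTC 5549-6 it was -0.82 beside -1.25, with medians over cells -1.73 beside -1.81, and at equal total reads 0.52 beside -0.45. The gap to all genes was thus smaller without that cell and small with medians.

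Reads recovered from the values were also summed per mouse and over the culture and compared in edgeR's quasi-likelihood test, which takes its spread from the 5 mice and assumes that the culture varies alike. After Benjamini-Hochberg adjustment it called 0 of 13813 genes in either direction, a background of 0%, and 0 of 10 members. PSAT1 had the smallest p of the members, with a log2 fold change of -2.60 (SE 0.684), an unadjusted p of 0.00254 in edgeR and an adjusted p of 1.00. It was the 1 member with an unadjusted p under 0.05, while the fold change was -1.78 (SE 1.41) for CHAC1 and -0.68 (SE 0.916) for PHGDH. The members with high single cells had wide errors, with 3.06 (SE 2.69) for TRIB3, 3.04 (SE 2.35) for SESN2 and 1.91 (SE 1.66) for DDIT3. DESeq2 called 14 genes and limma 1, with 0 members in both, and limma gave an unadjusted p under 0.05 for 3 members. These p-values measure the spread between these mice, and erythroid transcripts that were absent from culture moved with the same contrast, a part that was not tested.

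Single cells carried the high end of the stress genes. CTC 5549-6, with 588141 reads and 5202 genes, was the highest of 37 CTCs for DDIT4, ASNS, TRIB3 and SESN2 and second for DDIT3, and exceeded every cultured cell in these 5 members. Recovered reads were 2617 for DDIT4, 2234 for TRIB3, 1054 for SESN2, 731 for DDIT3 and 40 for ASNS. ATF4 mRNA in this cell was 238, the median of the CTCs, and PSAT1 (1.67, 1 read) and PHGDH (8.33, 5 reads) were below every cultured cell. The same cell was the highest CTC for 9.67% of 7019 genes with a CTC mean of at least 8. It had the highest erythroid sum (12509), the third highest leukocyte sum (158) and the third lowest tumor marker sum (6917) of the CTCs, and their part in its profile was not tested.

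CTC 5546-c10 (1257540 reads, 10252 genes) was the CTC in which all 10 members were detected. It was first for DDIT3 and ATF5 and second for TRIB3 and SESN2, and its ATF4 of 593, PSAT1 of 123 and PHGDH of 135 all lay above the CTC medians. Its LM2 tumor marker sum (9229) was the 34th of 37 and below every cultured cell, and its leukocyte sum (23.5) was the seventh highest, and their part in its profile was not tested. It was the highest CTC for 1.17% of genes, and 21.5% of its reads came from mitochondrial genes, where the CTC median was 7.07%. CTC 5546-s6 showed another combination, with the highest ATF4 (2412), the second highest DDIT4 (2151), PSAT1 of 253 and PHGDH of 136, but DDIT3 of 32.5 and TRIB3 at 0. It was the highest CTC for 3.31% of genes. The highest ATF4 mRNA and the highest DDIT3 and TRIB3 were thus found in different cells. TRIB3 and SESN2 were both detected in 8 CTCs, TRIB3 without SESN2 in 7, SESN2 without TRIB3 in 9 and neither in 13.

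**Figure D3:**
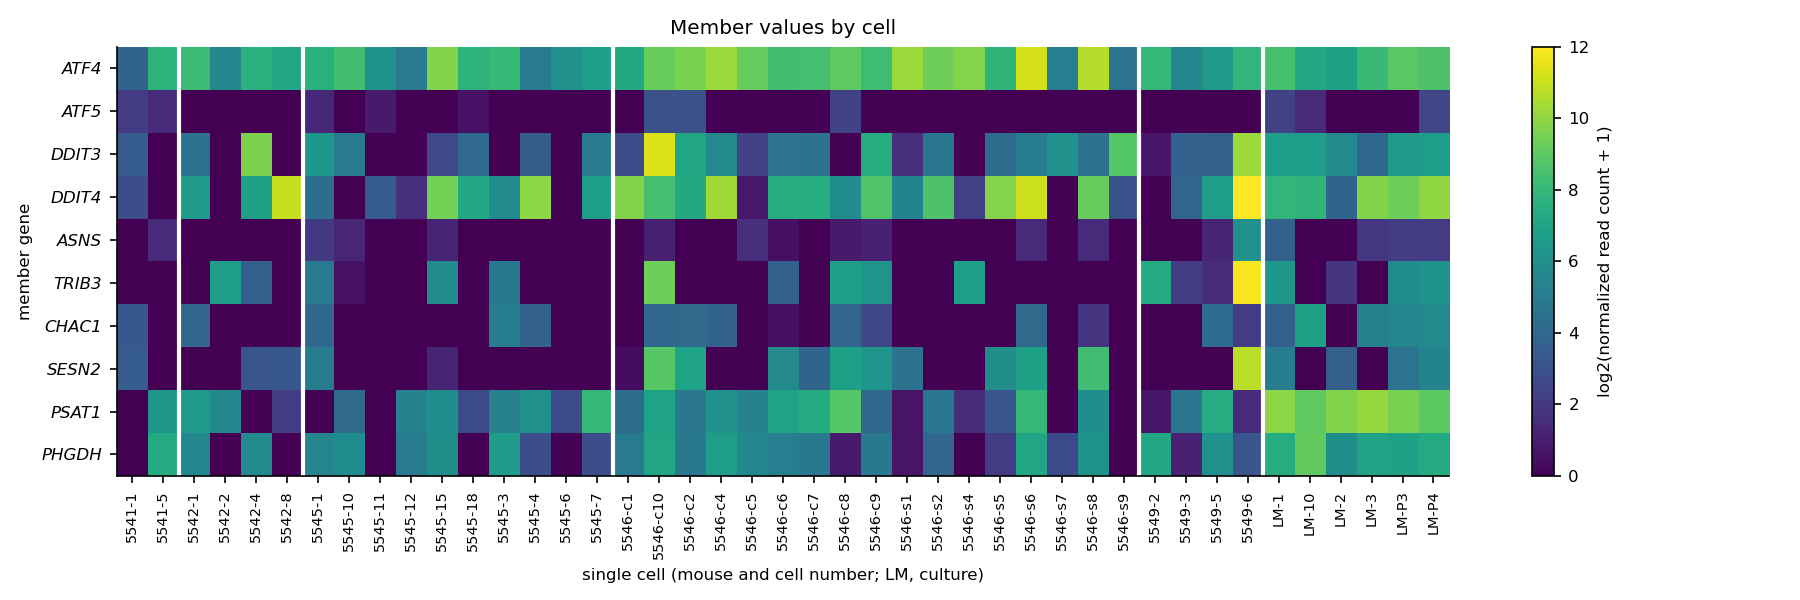
Values of the 10 members as log2(normalized read count + 1) in each of the 37 CTCs, ordered by mouse, and the 6 cultured cells at the right. Columns are cells and white lines separate mice and culture; 5549-6 is bright for DDIT3, DDIT4, ASNS, TRIB3 and SESN2 and dark for PSAT1, and the PSAT1 row is brightest in culture.

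Across the 37 CTCs the members varied together only loosely. Spearman's rho over the 45 pairs had a median of 0.245, the extremes being -0.13 and 0.561, and 38 pairs were above 0. The closest pairs were DDIT4 with SESN2 (0.561), both mTORC1 inhibitors, ASNS with PHGDH (0.507), ATF4 with PHGDH (0.460) and PSAT1 with PHGDH (0.443), the neighbors in serine synthesis. ASNS was at 0 in 24 of the 37 CTCs and had 68 reads in all of them, so its pairs rest on few reads. TRIB3 and DDIT4, both high in 5549-6, had -0.06. With genes detected regressed out the median was 0.208, with values centred within mice 0.203, and without 5549-6 and 5546-c10 0.213. The points share library, depth and number of genes detected, and PSAT1 (0.446) and CHAC1 (0.347) correlated most with the number of genes detected, so the values are a description. A score of the members, the mean of their z-scores of log2(value + 1), correlated with genes detected at 0.373. Of 7009 candidate genes, those most like this score over the 37 CTCs included IGF2BP2 (0.717), MIR22HG, BCL10, BECN1, EREG, AAR2 and HSPA5 (0.678), where the median gene had 0.172.

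**Figure D4:**
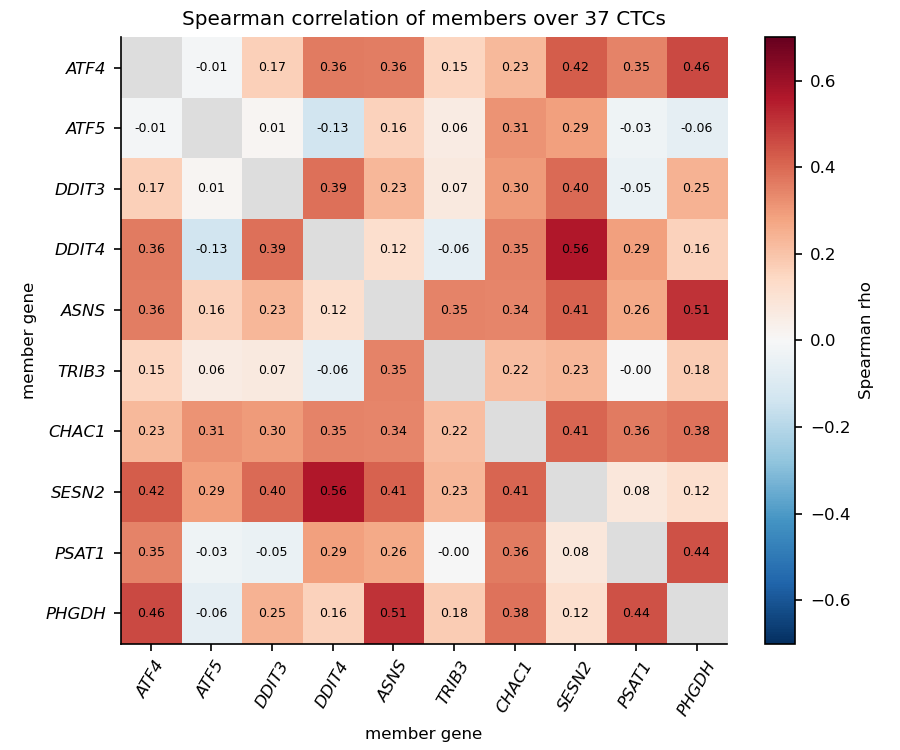
Spearman correlation of each pair of members over the 37 CTCs, with the value written in each square and gray squares for a gene with itself. Red squares are above 0 and blue below; 38 of the 45 pairs are above 0, the highest is DDIT4 with SESN2 at 0.561 and the lowest ATF5 with DDIT4 at -0.13.

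The wider pathway was followed through 7 lists of 77 genes, of which 75 were in the table. The rule of size took 6 of them as lower in CTCs and 0 as higher, against 1.89% and 0.0233% of all genes. All 5 mouse means were below culture for 45 and above for 1, against 34.0% and 0.901% of all genes. At equal total reads they were below for 31 and above for 3, against 21.9% and 2.49% of all genes. The same shares stand beside the counts by list that follow. Of the 25739 genes, 9164 had a larger mean of at least 8, and 85.3% of these had a log2 ratio below 0. The shares over all genes thus take in many genes of low level. Of the 73 tested, 0 were called by edgeR. The median log2 ratio over the 75, genes of low level included, was -1.30, beside -1.20 for all genes with the larger mean at least 8. It was -1.51 without CTC 5549-6.

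Of the serine, glycine, proline and one-carbon enzymes other than PSAT1 and PHGDH, 9 of 10 had all mice below culture, with a median log2 ratio of -2.01, and at equal total reads 7 of 10 with -1.37. Those past the rule of size were ALDH18A1 and PYCR1, the first and last enzymes of proline synthesis from glutamate, with 71.4 in culture and 5.84 in CTCs and with 207 and 24.9, and GPT2, a mitochondrial alanine transaminase, with 21.9 and 1.61. PSPH, the third enzyme of serine synthesis, had 83.4 and 21.7. Of 13 genes in the tRNA synthetase list, which includes the tRNA exporter XPOT, 11 had all mice below culture with a median of -1.60, and at equal total reads 7 with -0.95. NARS1 (176 and 12.0) and CARS1 (248 and 38.8) were past the rule. NARS1 had an unadjusted p of 0.0230 in edgeR and an adjusted p of 1.00. Of 9 amino acid transporters 4 had all mice below culture, and SLC7A5, the leucine carrier, was past the rule with 182 and 18.8, while SLC38A2, a sodium-coupled glutamine carrier singled out after its values were seen, had 151 in culture and 440.5 in CTCs. SLC38A2 had an unadjusted p of 0.0170 in edgeR, with a log2 fold change of 2.78 (SE 1.00), and was not called after adjustment. At equal total reads all mouse means of SLC38A2 were above culture, with a log2 ratio of 2.28. On that scale the rule kept ALDH18A1 and NARS1 of the 6 genes named as past it.

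The upstream and parallel arms held fewer large differences. Among 15 eIF2 kinases and eIF2 axis genes 10 had all mice below culture with a median of -1.59, and at equal total reads 7 had them below and 1 above, with -0.88. For the bZIP partners 2 of 7 did, with a median of -0.39. Of the 12 genes of the IRE1 and ATF6 branch, the other arms of the unfolded protein response, 6 did with a median of -1.25, and of 9 secreted and other targets 3 did with a median of -0.34. None of these 4 lists had a gene past the rule of size.

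**Figure D5:**
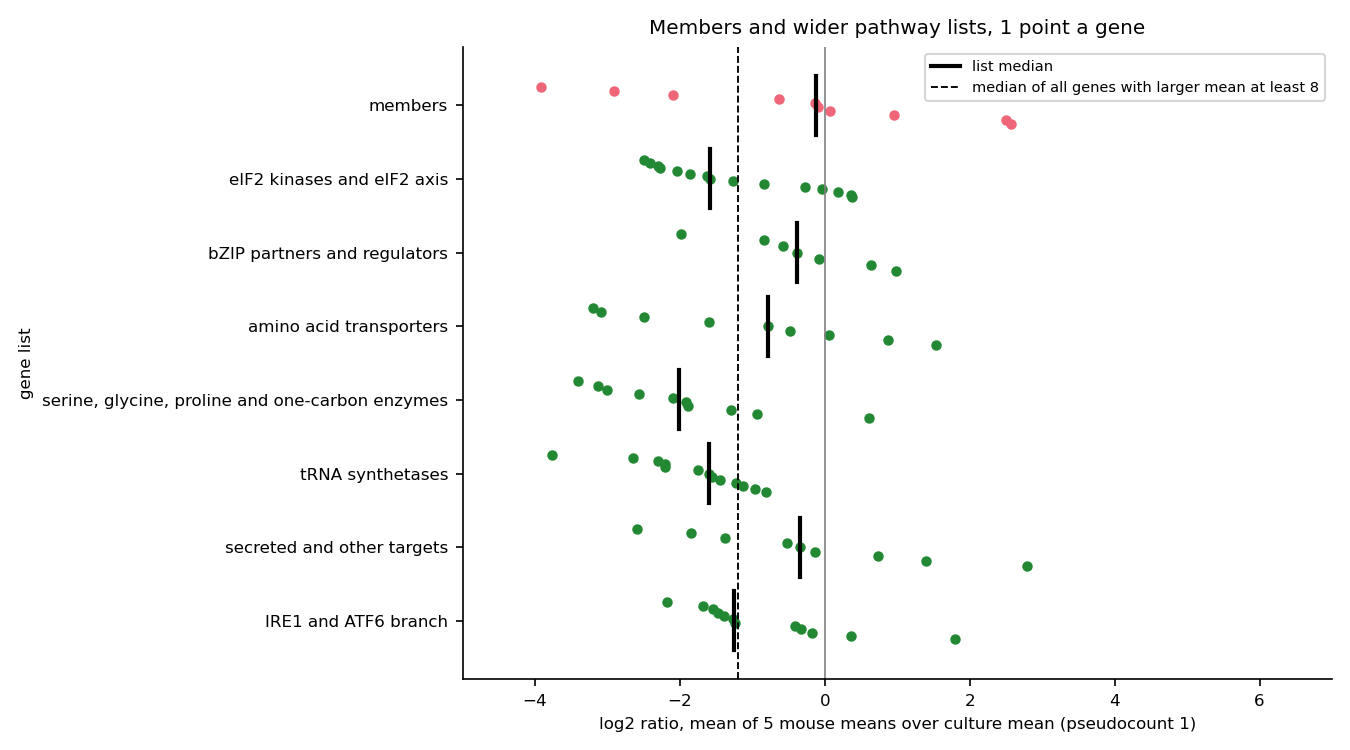
Log2 ratio of the mean of 5 mouse means to the culture mean, with 1 added to both, for the members (red) and 7 wider lists (green), 1 point a gene. Black bars are medians over all genes of a list, and the dashed line is the median of all genes with the larger mean at least 8, at -1.20. With that filter the median is -1.60 rather than -0.78 for the amino acid transporters and -1.37 rather than -0.34 for the secreted and other targets. The members spread from -3.92 to 2.57, and the list of serine, glycine, proline and one-carbon enzymes has the lowest median at -2.01.

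The wider genes were also read in the CTCs described above, in a choice made after their values were seen. CTC 5549-6 was the highest of 37 CTCs for 17 of 59 wider genes with a CTC mean of at least 8 (28.8%), beside the 9.67% of all genes. Among them were PPP1R15A (1184), which guides eIF2 back to its unphosphorylated state, the ATF4 partners CEBPB (1307) and CEBPG (724), the cystine carrier subunits SLC7A11 (429.6) and SLC3A2 (8021), 5 tRNA synthetases including GARS1 (1046), and XBP1 (2395) and ERN1 (445) of the IRE1 arm. CTC 5542-4 was the highest for 10 of 59 (16.9%), beside 6.45% of all genes, HSPA5, the main chaperone of the endoplasmic reticulum, among them. CTC 5546-c10 was the highest for 7 of 59 (11.9%), beside 1.17% of all genes, with ATF3 (302) and NUPR1 (123) among them, and was second for HSPA5 with 5408. CTC 5546-s6 was the highest for 5 of 59 (8.47%), beside 3.31% of all genes. The CTC mean behind the filter includes these cells, for the 59 genes and for all genes alike. A gene can thus pass the filter through the cell that leads it, so the proportions are only descriptions of these cells.

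Promoters were searched for the core of the C/EBP-ATF response element, the composite site that ATF4 binds with a C/EBP partner, written TGATGNAA and TTNCATCA on the other strand, in RefSeq windows of 250 bases before to 50 after a start site (GRCh38.p14). It was in a window of 2 of 10 members, of 18 of 63 wider genes with a window and of 4.46% of 27305 genes. By list it was found in 7 of 11 tRNA synthetases, 4 of 7 amino acid transporters, 3 of 5 bZIP partners and 0 of 12 genes of the IRE1 and ATF6 branch. Both members and 1 gene each of the bZIP, transporter and synthetase lists are shown 5′ to 3′ on the strand of the gene, with the match in capitals, because the 2 members with a match, ASNS and CHAC1, behaved differently here and because CTC 5549-6 was among the 3 highest CTCs for the others.
ASNS, chr7:97872453-97872492, minus strand, match from -68: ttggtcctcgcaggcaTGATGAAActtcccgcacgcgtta
CHAC1, chr15:40953246-40953285, plus strand, match from -209: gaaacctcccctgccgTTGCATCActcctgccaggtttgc
CEBPG, chr19:33374055-33374094, plus strand, match from -42: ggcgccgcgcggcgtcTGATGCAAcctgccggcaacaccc
SLC1A5, chr19:46784888-46784927, minus strand, match from -97: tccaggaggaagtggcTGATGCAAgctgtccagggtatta
AARS1, chr16:70289670-70289709, minus strand, match from -187: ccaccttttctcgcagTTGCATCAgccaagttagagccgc
ASNS and CEBPG carry the core in the direction of the gene and CHAC1 and AARS1 in the reverse. For ASNS, CEBPG and SLC1A5, windows at other start sites had no match. ASNS had 3.58 in culture and 3.81 in CTCs and was led by 5549-6, whereas CHAC1 was lower in CTCs of every mouse and had 3.33 in that cell. PSAT1 and PHGDH, with no match of these letters in their windows, were lower together with CHAC1. A match is a run of letters and was not related to binding here.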

How the data were processed

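Single-cell SMARTseq2 libraries of 37 CTCs and 6 cultured LM2 cells were used. What the authors deposited is a normalized signal, namely gene read counts scaled by DESeq2 (1.42.1) size factors. Per the submitters' processing notes and methods, STAR 2.7.10a was run on GRCh38, uniquely mapped reads were counted on GENCODE release 38 without strand, and cells of low mapping rate or high mitochondrial share were removed. SMARTseq2 has no molecular identifiers, and cDNA was amplified for a cycle number set per cell, so intervals cover counting error only.

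Values divided by the smallest nonzero value of their cell gave whole reads for 100% of values (tolerance 0.001). Names and coordinates came from GENCODE release 44, which matched 25565 of 25739 identifiers, and promoters from RefSeq GRCh38.p14. Groups and mice came from the labels. The mouse was the replicate, and the culture 1 sample. Reads summed per mouse were tested with edgeR 4.0.16 (TMM, filterByExpr, adjusted p threshold 0.05), with DESeq2 1.42.0 and limma 3.58.1 as alternatives, in R 4.3.3 and Python 3.11.15. Shares have exact Clopper-Pearson 95% intervals. Depth was at least 469614 reads per cell. The rule of size and the edgeR test were first run on simulated data with known changes. The simulated spread was not matched to that between these mice, so the power of the test here is not known. The named wider genes are those past the rule of size, and others are said to be chosen later. Members and lists were chosen with earlier results of these data known. CBS and FGF21 of the wider lists and some genes of the marker lists were not analysed here.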

Additional observations from a re-analysis of the deposited data

Results flagged for a closer look

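Cells or mouse means far from the rest of their group on the log2(value + 1) scale were looked for. Of 47 groups of 4 to 10 values, 6 were flagged. Chance marks about 1 group in 20 where values are normally distributed. These values hold many zeros, and a lone cell with a read among cells at 0 is always marked, so that rate need not hold here. SESN2 in CTC 5549-6 was 1755 while the other 3 CTCs of mouse 5549 were at 0. SESN2 in CTC 5545-1 was 33.3, where the next of the 10 CTCs of mouse 5545 had 1.34. CHAC1 in CTC 5542-1 was 14.3, with the other 3 CTCs of mouse 5542 at 0. ASNS had a mean of 17.0 in mouse 5549, where the next mouse had 0.906, and this mean came from 5549-6. Among the cultured cells, DDIT3 was 15.0 in LM-3 with the next cell at 51.4, and DDIT4 was 13.8 in LM-2 with the next cell at 221. The causes were not tested.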

How the results depend on the processing

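The count of members lower by the rule of size, 2, was 1 with a pseudocount of 8 and 1 at equal total reads outside mitochondrial genes (PSAT1 in both), and 2 or 3 under the 19 other settings, those without each mouse or cultured cell included. The count with all mice below culture, 3, was 6 with medians over cells, which added DDIT3, DDIT4 and ASNS. It was 3 to 4 without each mouse or cultured cell, with ATF5 added without mouse 5541, ATF4 without mouse 5546 and ASNS without mouse 5549 or CTC 5549-6. In limma on log2(mean + 1), whose median over genes was -1.39 against 0.31 in edgeR, the fold change turned to -0.46 for ATF4, -0.19 for DDIT3, -1.41 for DDIT4, -0.92 for ASNS and -0.32 for TRIB3. Without 1 mouse or cultured cell, ATF5 ran from -0.60 (without mouse 5541) to 1.12 and was -0.0013 without LM-P3, and ASNS ran from -1.44 (without mouse 5549) to 1.20. Without CTC 5549-6, an alternative added after seeing the data, ASNS was -1.32. Another 170 fold changes kept their sign, and 0 members were called under any of 18 alternatives, among them DESeq2 and edgeR without a filter on low counts. Of the log2 ratios, 159 stayed within the spread over mice of their gene and 11 moved beyond it. Medians over cells and the setting without the 4 CTCs with the fewest genes were left out of this count. With medians the ratio was -2.89 for DDIT3, -2.51 for DDIT4, -0.69 for TRIB3 and -1.30 for SESN2. That spread was wide for some members, so TRIB3 at -0.19 without CTC 5549-6 counted as within it (SD over mice 3.60). The median correlation stayed between 0.203 and 0.238. No paired analysis was possible because cell numbers name single cells of a mouse and the mice and the culture share no replicate. Depth limits ATF5 and ASNS, with 48 and 68 reads over all CTCs, and 1 culture limits all contrasts with CTCs.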
